A study of Mus musculus with 8 samples.

Results

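Keratins are the intermediate filament proteins of epithelial cells, and a type I and a type II keratin pair to form each filament. Simple epithelia such as the colon lining use the type II keratins Krt8 and Krt7 with the type I keratins Krt18, Krt19, Krt20 and Krt23, whereas the basal layer of squamous epithelia uses the type II keratin Krt5 with Krt14, Krt15 and Krt17. Krt20 is known as a keratin of differentiated colonocytes at the top of the crypt. These 10 genes, 6 of simple and 4 of squamous epithelium, were taken by symbol from the 53 keratin genes among the 32285 genes measured, and all 10 were present in the deposited matrices.

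Single-cell RNA sequencing of mouse colon was available as 8 libraries, with 2 biological replicates in each of 4 groups. Tissue epithelium was taken from colon crypts, organoid epithelium from crypt cells grown alone in full medium, and assembloid epithelium from organoids combined with cultured colon stromal cells and kept without sWnt, CHIR99021, R-spondin 1 and noggin. Assembloid stroma was taken as EpCAM-negative cells of such cultures, although some cells of these libraries carried epithelial markers, as given below. The study's methods state C57BL/6 mice for these libraries, give 2 mice as the source of the stroma, and describe the animals used as males aged 6 to 12 weeks. The stromal cells had been expanded in culture before assembly, so that the stroma is a cultured population and not colon tissue.

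Barcodes were kept from 500 detected genes upwards and up to 10% mitochondrial counts, and their unique molecular identifiers (UMIs), which mark single captured transcripts, were summed. A level is given below in CPM, the UMIs of a gene scaled to 1000000 UMIs of the same cells. The passing cells numbered 4302 to 27136 per library, with 36905046 to 187526361 UMIs in all. The first assembloid epithelium library stood apart by its 27136 cells, at a median of 3481 UMIs, against 6888 cells at 13790 in the second. Tissue medians were 3353 and 3698 UMIs. In tissue the filter kept 4692 of 12137 and 4310 of 16974 barcodes, before non-epithelial cells were left out. Every pair of libraries shared at most 1.07% of its barcodes. Epithelial marker genes summed to between 4878 and 9696 CPM in the epithelial libraries and to 263 and 78.8 CPM in the stromal libraries. Among cells with at least 2000 UMIs the assembloid epithelium libraries also held 1231 and 572 fibroblast-like and 369 and 220 macrophage-like cells. Cells of every non-epithelial gate, at any depth, were left out of the epithelial sums. This took the passing cells of the assembloid libraries from 29410 to 27136 and from 7722 to 6888. A squamous-like cell of the first organoid library was left out as well.

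The simple keratins carried nearly all keratin UMIs of the epithelium, and the squamous keratins were near 0 there. The 10 genes together made up 99.5% and 99.7% of keratin UMIs in assembloid epithelium, 98.0% and 97.3% in organoids, and 99.6% and 99.7% in tissue. Krt5 had 1 UMI in each assembloid library and 1 and 0 in the organoid libraries. Tissue held no UMI of Krt5 or Krt17, where 3 UMIs would have been 0.0639 and 0.0813 CPM. Krt14 lay between 0.699 and 1.52 CPM and Krt15 between 0.347 and 0.828 CPM in all 6 epithelial libraries. Both tissue libraries were above the 4 culture libraries for Krt14, the groups overlapped for Krt15, and neither gene was called between groups.

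**Figure D1:**
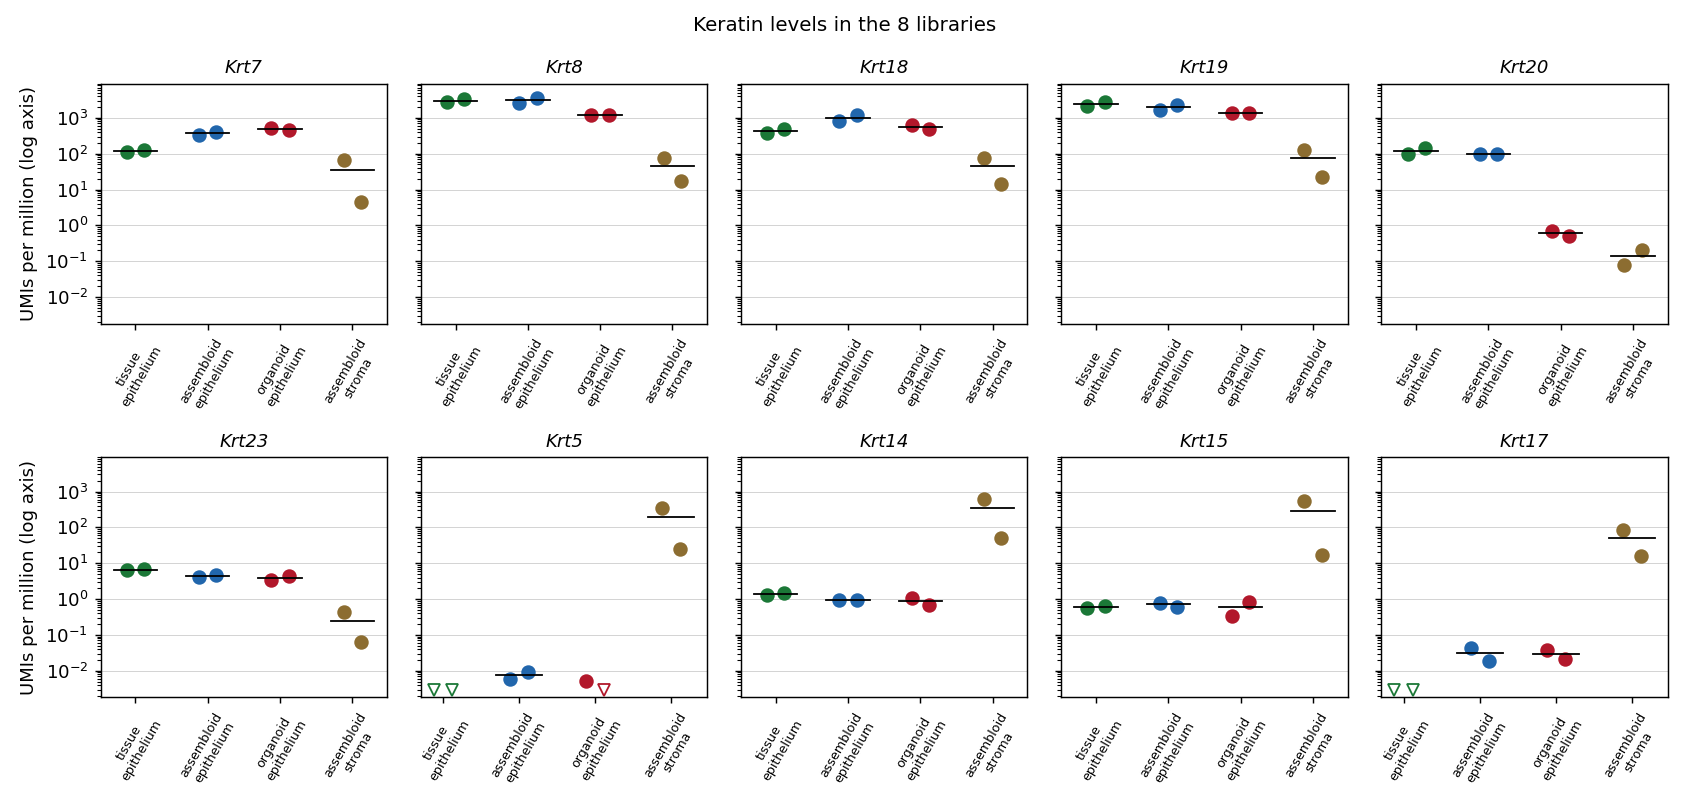
Level of each keratin in CPM (log axis) in the 8 libraries, with 2 points per group and a line at their arithmetic mean. Open triangles at the foot mark libraries with 0 UMIs. Krt20 sat at 0.704 and 0.495 CPM in organoids against at least 95.9 CPM in tissue and assembloids, and the squamous keratins Krt5, Krt14, Krt15 and Krt17 were high in stroma only.

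Krt7, a type II keratin of ductal and glandular epithelia, was higher in both cultures than in tissue. It measured 114 and 131 CPM in the tissue libraries, 333 and 406 CPM in assembloids, and 518 and 468 CPM in organoids. The lowest culture library was above the highest tissue library. Fitted across all genes with edgeR's quasi-likelihood test and Benjamini-Hochberg adjustment (called at an adjusted p under 0.05), Krt7 was 1.97 ± 0.27 log2 units (SE) higher in assembloids than in tissue (adjusted p = 0.000622). In organoids the edgeR difference from tissue was 2.26 ± 0.27 (adjusted p = 0.000296), while organoids and assembloids differed by 0.29 ± 0.26 (adjusted p = 0.369). Both calls against tissue held under all 14 alternatives that were run.

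Krt18, the type I partner of Krt8, measured 374 and 483 CPM in tissue, 797 and 1195 CPM in assembloids, and 632 and 496 CPM in organoids. It rose by 1.58 ± 0.33 log2 units from tissue to assembloids (edgeR adjusted p = 0.00493), and the call was lost without the first tissue library (1.38). The organoid level lay 0.92 ± 0.33 log2 units under the assembloid level (edgeR adjusted p = 0.0412). That call was lost when the second assembloid library (-0.70), the second organoid library (-0.59) or either tissue library (-0.90) was left out. It was also lost with every deposited barcode (-0.83) and with non-epithelial cells kept (-0.75).

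Krt8, the type II keratin that simple epithelia express from the crypt base to the surface, measured 2680 and 3291 CPM in tissue, 2670 and 3585 CPM in assembloids, and 1233 and 1222 CPM in organoids. Tissue and assembloids overlapped (0.44 ± 0.32 on the log2 scale, edgeR adjusted p = 0.285). Their difference was called at 5% mitochondrial counts or less (0.68). Both organoid libraries were below all others, by 1.48 ± 0.33 log2 units against assembloids (edgeR adjusted p = 0.0056) and by 1.04 ± 0.32 against tissue (edgeR adjusted p = 0.028). The fall from tissue was not called without the first (-1.18) or the second tissue library (-0.86), or with every deposited barcode (-0.86). Krt19, a type I keratin without the tail domain of other keratins, measured 2142 and 2796 CPM in tissue, 1634 and 2276 CPM in assembloids, and 1348 and 1340 CPM in organoids. Its organoid level was lowest, but no difference was called with the settings used throughout. The difference from tissue was called with DESeq2 (-0.67) and without the TMM factor (-0.88), and that from assembloids with DESeq2 (-0.74) and at 5% mitochondrial counts or less (-0.60).

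Krt20 showed the widest gap of the 10 keratins between epithelial groups. The tissue libraries held 95.9 and 144 CPM (4504 and 5308 UMIs) and the assembloid libraries 99.5 CPM each. The organoid libraries held 0.704 and 0.495 CPM, or 132 and 46 UMIs. Tissue and assembloids overlapped, whereas no organoid library came near either. In the edgeR fit organoids were lower by 7.35 ± 0.40 log2 units than tissue (adjusted p = 7.51e-06) and by 7.46 ± 0.40 than assembloids (adjusted p = 1.9e-05). Krt23, a further type I keratin, measured 6.51 and 6.75 CPM in tissue and 3.32 to 4.63 CPM in the 4 culture libraries, so tissue was above both cultures. It was not called, but the difference of organoids from tissue was called with DESeq2 (-0.61), without the TMM factor (-0.80) and with every deposited barcode (-0.68).

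The Krt20 UMIs of the organoids were traced to gated and ungated cells. In the first library 10 cells that passed the colonocyte-like gate held 67 of the 132 UMIs (50.8%), and 2 enteroendocrine-like cells held another 37. In the second library 3 colonocyte-like cells held 9 of the 46 UMIs (19.6%) and 10 enteroendocrine-like cells held 12, while the 2275 ungated cells held 21 (45.7%). In the first library the 2824 ungated cells held 22. The 1655 and 1407 cycling cells held 6 and 4 UMIs. The 246 and 897 stem-like cells, which lay outside the cycling gate, held none.

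The sequence upstream of Krt20 is shown because this gene separated organoids from the other groups. RefSeq's GRCm38.p6 annotation gives the 250 bases before its start as chr11:99438154-99438403 on the minus strand, which lies before the first GENCODE exon. TATAAA, searched on both strands and set in capitals, occurs in it once.

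Krt20 upstream: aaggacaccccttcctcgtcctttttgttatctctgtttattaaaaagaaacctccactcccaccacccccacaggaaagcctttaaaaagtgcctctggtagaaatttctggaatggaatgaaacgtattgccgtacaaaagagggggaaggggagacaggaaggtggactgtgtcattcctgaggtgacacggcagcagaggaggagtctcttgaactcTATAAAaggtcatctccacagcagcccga

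The same letters occur in 12.4% of 32851 windows of this length and not in the window of Krt5, which also lies before its first GENCODE exon. The windows of Krt7, Krt8, Krt18, Krt23 and Krt14 overlap GENCODE transcripts of these genes and were not compared. The windows of Krt15, Krt17 and Krt19 were not used here. By position Krt20 (chr11:99428403-99438150) and Krt23 (chr11:99477974-99493137) lie in the type I cluster on chromosome 11 with Krt15, Krt19, Krt14 and Krt17. Krt18 is the type I gene outside it, next to Krt8 and in the type II cluster on chromosome 15 with Krt7 and Krt5 (GRCm38, GENCODE M21).

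Krt5 and Krt17 did not pass the filter on low counts in the epithelial fits, nor did Krt15 in colonocyte-like cells or Krt14 and Krt15 in goblet-like cells. Between whole epithelial libraries, 2 of the 8 keratins tested were called from tissue to assembloids, 3 from tissue to organoids and 3 from assembloids to organoids. Over all 19229 genes the shares called were 50.0%, 47.1% and 53.4%, so the shares among keratins were no larger. The 3 comparisons share libraries. Without the trimmed-mean (TMM) scaling factor the median log2 fold change of all genes moved from 0.03 to -0.35 between assembloids and tissue, and the genes called higher and lower went from 5153 and 4454 to 3875 and 6267. From tissue to organoids 4669 genes were called higher and 4395 lower, against 3538 and 4951 without the factor, and 5 keratins were then called instead of 3. The fold changes given here are relative to the TMM scale.

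Levels in a whole library move with its mix of cell types, and fewer cells of a type and less RNA per cell cannot be told apart there. Cells with at least 2000 UMIs were therefore gated by marker genes that include no keratin. Colonocyte-like cells (Slc26a3, Aqp8, Car4 and others) numbered 430 and 523 in tissue and 1339 and 758 in assembloids, but 10 and 3 in organoids, which were too few to test. Goblet-like cells (Muc2, Zg16, Clca1 and others) numbered 686 and 869 in tissue, 440 and 347 in assembloids, and 23 and 23 in organoids. Cycling cells (Mki67, Top2a and others) numbered 121 and 58, 2254 and 671, and 1655 and 1407.

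Epithelial transcripts were also counted in cells that should lack them. In fibroblast-like cells of the assembloid epithelium libraries Krt7, Krt8, Krt18, Krt19 and Krt20 stood at 30.2% to 38.4% of the epithelial level in replicate 1 and at 12.98% to 16.6% in replicate 2. In macrophage-like cells they stood at 40.5% to 48.7% and at 16.4% to 21.8%. In fibroblast-like cells of the first and second assembloid library Krt7 stood at 105 and 66.5 CPM, Krt18 at 306 and 199 CPM, and Krt20 at 30.04 and 12.9 CPM. The fibroblast- and macrophage-like gates came before the epithelial gates in these libraries, and no doublet caller was run. Doublets with epithelial cells can thus be among these cells. Where the part of free RNA is given below as not tested, the part of doublets was not tested either.

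**Figure D2:**
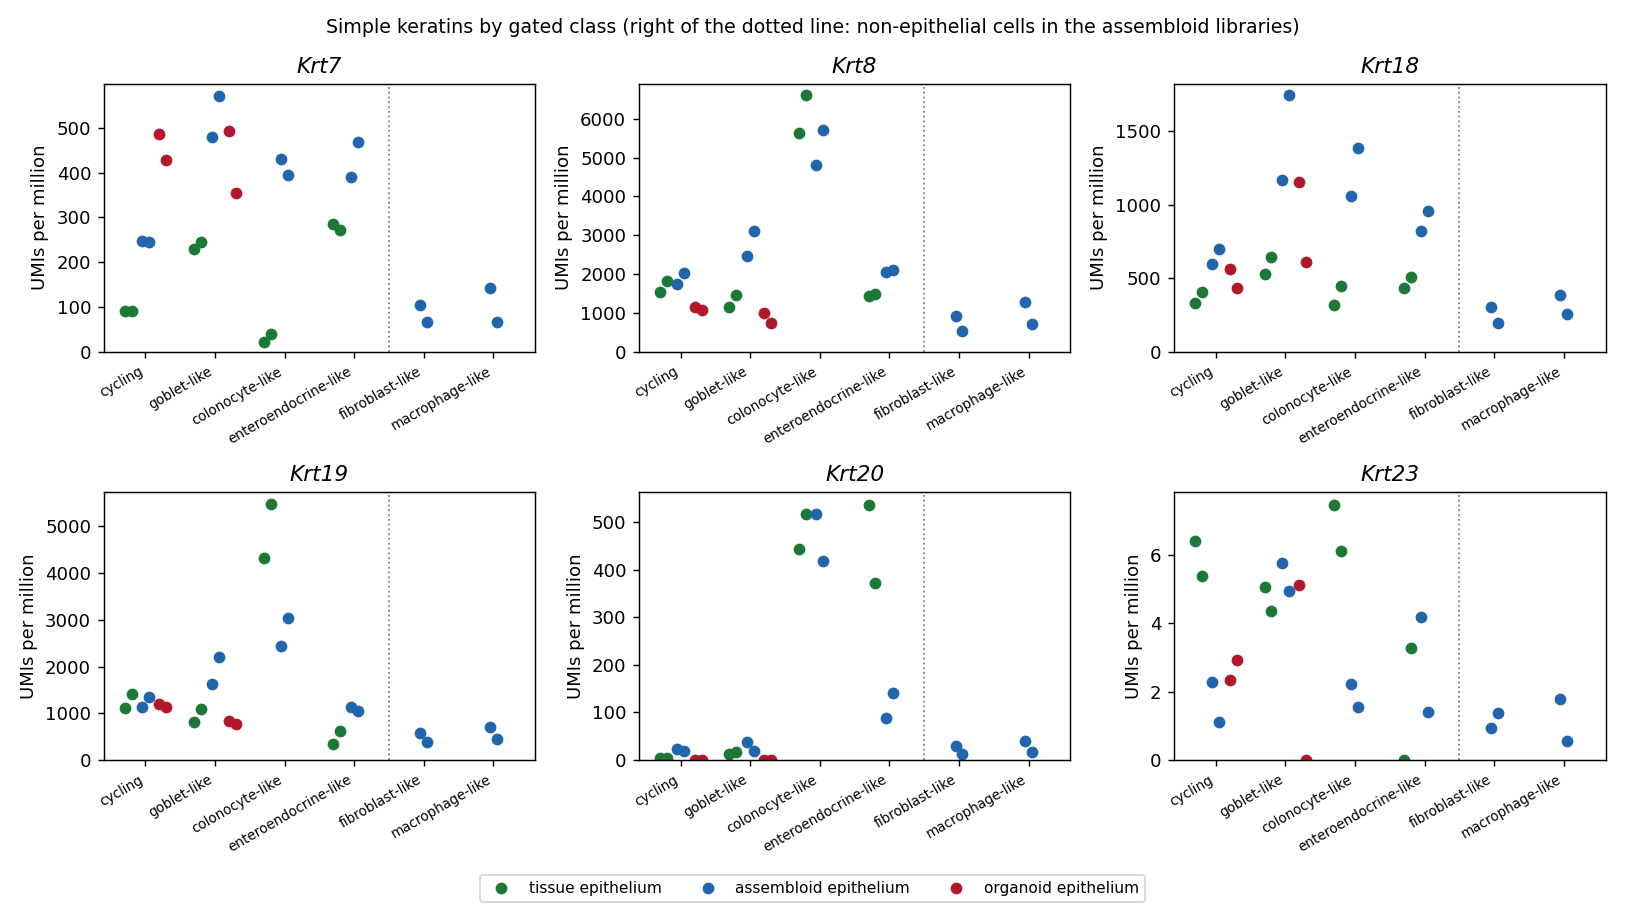
Level of the 6 simple keratins in CPM (linear axes) by marker-gated class, with 1 point per library of tissue, assembloid and organoid epithelium and sums of at least 20 cells. Krt7 was at 21.5 and 39.3 CPM in tissue colonocyte-like cells against 431 and 396 CPM in assembloid ones, and Krt20 stood between 18.1 and 37.1 CPM in assembloid cycling and goblet-like cells beside 30.04 and 12.9 CPM in fibroblast-like cells.

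In colonocyte-like cells Krt7 and Krt18 were higher in assembloids than in tissue. Krt7 measured 21.5 and 39.3 CPM in tissue and 431 and 396 CPM in assembloids, where fibroblast-like cells held 105 and 66.5 CPM. The difference was 4.20 ± 0.28 log2 units (edgeR adjusted p = 1.22e-05). Of tissue colonocyte-like cells 23.95% and 33.3% had a Krt7 UMI at median depths of 18150 and 14986 UMIs, against 78.5% and 92.5% of assembloid ones at 6450 and 16656. With every cell thinned to 2000 UMIs these shares were 3.78% and 8.40% against 50.2% and 47.9%, beside 20.4% and 7.96% of assembloid fibroblast-like cells. Krt18 rose from 321 and 449 CPM to 1058 and 1386 CPM, by 2.10 ± 0.23 log2 units (edgeR adjusted p = 0.00013), beside 306 and 199 CPM in fibroblast-like cells. The part of free RNA in both rises was not tested.

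Krt20, Krt8 and Krt19 were not called between the colonocyte-like cells of both groups. Krt20 measured 444 and 518 CPM in tissue and 517 and 420 CPM in assembloids, with overlapping libraries and a difference of 0.39 ± 0.18 log2 units (edgeR adjusted p = 0.103). It was called without the second assembloid library (0.55), and its sign turned without the TMM factor (-0.04). Krt8 measured 5632 and 6603 CPM against 4816 and 5701 CPM. Krt19 measured 4318 and 5483 CPM in tissue against 2436 and 3035 CPM in assembloids, so both assembloid libraries were lower. This was not called with TMM scaling (-0.41 ± 0.21, edgeR adjusted p = 0.125), but was called without it (-0.84) and without the second assembloid library (-0.56).

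At the low end, Krt23 fell from 7.47 and 6.11 CPM to 2.24 and 1.55 CPM (-1.43 ± 0.35, edgeR adjusted p = 0.00832), beside 0.939 and 1.39 CPM in assembloid fibroblast-like cells, and was not called without the first tissue library (-1.28). Krt14 fell from 20 and 15 UMIs to 3 and 3 UMIs (-2.62 ± 0.55, edgeR adjusted p = 0.00383), and was not called without the first (-2.45) or second (-2.81) tissue library. Krt14 passed the filter on low counts only through tissue, where it was high. Its fall is therefore given as a description, although the next count includes it. In all 4 of 7 tested keratins were called in this class, 2 higher and 2 lower, where 53.3% of all 12472 genes were called. Without the first tissue library 2 were called, both higher, and without the second assembloid library 6.

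Goblet-like cells carried more of the simple keratins in assembloids than in tissue. Krt8 measured 1143 and 1455 CPM in tissue and 2462 and 3104 CPM in assembloids, a rise of 1.61 ± 0.25 log2 units (edgeR adjusted p = 0.000375). Krt19 went from 809 and 1088 CPM to 1634 and 2198 CPM, Krt18 from 532 and 644 CPM to 1171 and 1748 CPM, and Krt7 from 230 and 245 CPM to 478 and 571 CPM. Their differences were 1.52 ± 0.23, 1.81 ± 0.30 and 1.65 ± 0.21 log2 units, all called with edgeR. No assembloid library overlapped a tissue library for these 4 genes. In fibroblast-like cells of the same assembloid libraries Krt8 stood at 933 and 544 CPM, Krt19 at 575 and 376 CPM, Krt18 at 306 and 199 CPM and Krt7 at 105 and 66.5 CPM, and the part of free RNA in the rise was not tested. Krt20 was called as well (1.41 ± 0.33, edgeR adjusted p = 0.00613), at 37.1 and 19.4 CPM against 12.3 and 17.8 CPM in tissue, beside 30.04 and 12.9 CPM in assembloid fibroblast-like cells, and the part of free RNA was again not tested. The call was lost without the first tissue library (1.21). Krt23, at 5.05 and 4.36 CPM in tissue and 5.77 and 4.95 CPM in assembloids, was not called, but was under the stricter gate (1.24). Krt15 had 9 and 9 UMIs in tissue and 10 and 13 in assembloids. It was tested under 8 alternatives (1.63 to 2.30) and called in 5. In all 5 of 6 tested keratins were called, against 47.5% of 12610 genes.

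Krt8, Krt19 and Krt18 were lower in organoid goblet-like cells, only 23 per library, than in assembloid ones. The fibroblast-like cells of the assembloid libraries held 933 and 544 CPM of Krt8, and the part of free RNA in these differences was not tested. Krt8 measured 1011 and 737 CPM, 2.25 ± 0.26 log2 units under assembloids (edgeR adjusted p = 0.000231). Krt19 measured 844 and 779 CPM and was 1.82 ± 0.24 lower (edgeR adjusted p = 0.000561). Krt7 measured 494 and 354 CPM (-0.89 ± 0.22), overlapping the assembloid libraries, and Krt18 1156 and 614 CPM (-1.29 ± 0.30), both called, but neither without the second organoid library (-0.68 and -0.93) nor without the TMM factor (-0.30 and -0.71). Krt20 had 0 UMIs in both organoid libraries, where 3 UMIs over both would be 3.11 CPM. Its mean was thus at least 9.09-fold lower than in assembloids and at least 4.83-fold lower than in tissue. The assembloid mean of 28.3 CPM stood beside 30.04 and 12.9 CPM of Krt20 in assembloid fibroblast-like cells. The part of free RNA in the Krt20 difference from assembloids was not tested. The call against tissue was lost without either organoid library, and that against assembloids without the first, where only 23 cells remained. Against tissue Krt7 was higher (0.76 ± 0.22, edgeR adjusted p = 0.0326), but not without the first organoid library (0.46) or without the first (0.73) or second (0.82) tissue library. Krt23 (3 and 0 UMIs in organoids) was called in neither comparison. Of the 6 keratins tested 5 were called between organoids and assembloids and 2 between organoids and tissue, while 22.8% and 18.4% of all genes were. Without the TMM factor the count against assembloids was 3.

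Cycling cells, present in all 3 groups, showed the Krt7 difference where no colonocyte-like cells were compared. Krt7 measured 90.1 and 90.5 CPM in tissue, 248 and 246 CPM in assembloids, and 486 and 427 CPM in organoids. The 3 groups did not overlap. Assembloids were 1.93 ± 0.31 (edgeR adjusted p = 0.000296) and organoids 2.75 ± 0.32 log2 units (edgeR adjusted p = 1.92e-05) above tissue. The step from assembloids to organoids was 0.82 ± 0.29 (edgeR adjusted p = 0.0365) and was not called without either assembloid library (0.96 and 0.71), without the first organoid library (0.56), without either tissue library (0.81) or under the stricter gate (0.67).

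Krt20 in organoid cycling cells stood at 0.0779 and 0.128 CPM, against 5.21 and 4.31 CPM in tissue, and was 5.19 ± 0.60 log2 units lower (edgeR adjusted p = 1.84e-05). In assembloid cycling cells it stood at 23.7 and 18.1 CPM, beside a fibroblast-like level of 30.04 and 12.9 CPM, and the part of free RNA in the called difference from tissue (2.58 ± 0.42) was not tested. Thinned to 2000 UMIs, 6.54% and 3.41% of these cells had a Krt20 UMI, against 6.01% and 1.86% of fibroblast-like cells. Krt18 went from 333 and 410 CPM in tissue to 597 and 698 CPM in assembloids (1.27 ± 0.33, edgeR adjusted p = 0.00869), and this was not called without the first (1.22) or second (1.47) tissue library. Krt18 of organoids was called against neither group, but was against tissue with DESeq2 (0.79) and without the low-count filter (0.93). Its difference from tissue was 1.19 without the second organoid library. That from assembloids was -0.80 without the first organoid library. Krt18 stood at 306 and 199 CPM in assembloid fibroblast-like cells, and the part of free RNA in its rise and in that of Krt7 was not tested. Krt8 measured 1530 and 1818 CPM in tissue, 1744 and 2023 CPM in assembloids, and 1145 and 1079 CPM in organoids. The step from assembloids to organoids was not called (-0.82 ± 0.35, edgeR adjusted p = 0.0738) but was called in 5 of 11 alternatives: with the replicate block (-0.83), with DESeq2 (-0.96), under the stricter gate (-0.92), without the TMM factor (-0.76) and without the first organoid library (-1.03). Krt19 lay between 1110 and 1423 CPM in all 6 libraries, Krt23 between 1.10 and 6.41 CPM, Krt14 between 0.289 and 3.23 CPM and Krt15 at up to 1.16 CPM, and none of these was called. Krt23 was above both cultures in tissue, and the difference of assembloids from tissue was called without the TMM factor (-1.80) and without the first assembloid library (-2.09). Called keratins numbered 3 of 8 from tissue to assembloids, 2 from tissue to organoids and 2 from assembloids to organoids, beside 34.2%, 28.3% and 39.1% of 15396 genes.

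Colonocyte-like cells were next set against cycling and goblet-like cells of the same library, with the library as a block. Krt20 was 7.16 ± 0.26 log2 units higher in colonocyte-like than in cycling cells of tissue and 4.92 ± 0.18 higher in assembloids. Krt8 was higher by 2.50 ± 0.17 and 1.90 ± 0.17, and Krt19 by 2.58 ± 0.17 and 1.55 ± 0.17. All 6 of these edgeR differences were called, and every library showed them. Krt18 was 0.67 ± 0.17 higher in tissue (edgeR adjusted p = 0.00303), but not called without the TMM factor (0.04) or without the first (0.69) or second (0.58) tissue library. In CPM the first tissue library had less Krt18 in colonocyte-like than in cycling cells, and the second had more. In assembloids Krt18 was 1.32 ± 0.16 higher (edgeR adjusted p = 3.65e-06). The difference between these gains of Krt18 was not called, but was with DESeq2 (0.83) and without the TMM factor (0.86). It was 0.98 without the first and 0.58 without the second assembloid library.

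Krt7 ran in opposite directions in tissue and in assembloids when set against cycling cells. In tissue the colonocyte-like cells held 21.5 and 39.3 CPM against 90.1 and 90.5 CPM in cycling cells (-1.01 ± 0.21, edgeR adjusted p = 0.00061) and 230 and 245 CPM in goblet-like cells (-2.69 ± 0.19, edgeR adjusted p = 3.45e-09). The first of these was not called without the first tissue library (-0.64). In assembloids they held 431 and 396 CPM, above the 248 and 246 CPM of cycling cells (1.16 ± 0.17, edgeR adjusted p = 2.19e-05) and close to the 478 and 571 CPM of goblet-like cells (-0.19 ± 0.17, edgeR adjusted p = 0.467). The test of the difference itself gave 2.17 ± 0.27 log2 units against cycling cells (edgeR adjusted p = 5.21e-05) and 2.50 ± 0.25 against goblet-like cells (edgeR adjusted p = 4.79e-06). Both were called under all 10 alternatives.

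**Figure D3:**
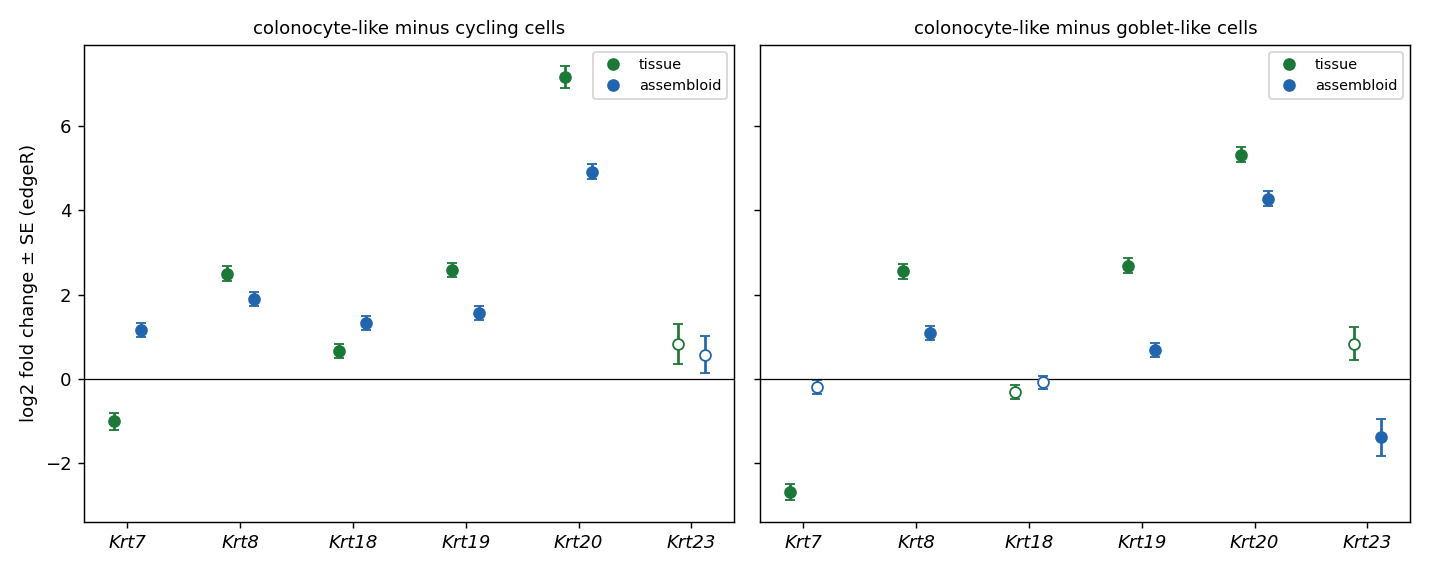
Log2 fold change of the 6 simple keratins between colonocyte-like cells and cycling cells (left) or goblet-like cells (right) of the same library, in tissue and assembloid epithelium, with bars of 1 SE. Filled points were called at an adjusted p under 0.05. Krt7 lay at -1.01 and -2.69 in tissue and at 1.16 and -0.19 in assembloids.

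Krt19 and Krt8 differed less between colonocyte-like and goblet-like cells in assembloids than in tissue. Against goblet-like cells the gain of Krt19 was 2.69 ± 0.17 log2 units in tissue and 0.68 ± 0.16 in assembloids, and that of Krt8 was 2.55 ± 0.17 and 1.08 ± 0.17. The differences of these gains, -2.01 ± 0.23 and -1.47 ± 0.23, were called (edgeR adjusted p = 2.22e-05 and 0.000364). Against cycling cells the difference for Krt8 was not called (-0.60 ± 0.23, edgeR adjusted p = 0.0973), but was with DESeq2 (-0.43) and without the second assembloid library (-0.61). The part of free RNA in the goblet-like levels was not tested. Of the 8 keratins tested 3 were called for a group difference against cycling cells and 5 against goblet-like cells, beside 14.5% and 15.1% of 15465 genes. Within tissue 5 were called against cycling cells, where 44.7% of genes were, and within assembloids 5, where 48.7% were. Without the first tissue library 3 were called in tissue.

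Outside these classes Krt20 was also high in enteroendocrine-like cells (Chga, Chgb, Neurod1 and others) of tissue, at 538 and 373 CPM in 43 and 77 cells. Assembloid enteroendocrine-like cells held 87.9 and 140 CPM in 42 and 39 cells. Both tissue values were above both assembloid values. No test was fixed for this class. In tissue tuft-like cells (23 cells of the second library) Krt18 stood at 2960 CPM and Krt23 at 127 CPM, against at most 12.1 CPM of Krt23 in every other named class of the epithelial libraries. The first tissue library had 10 such cells with 7 Krt23 UMIs (47.1 CPM), so both libraries rest on few cells.

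Squamous keratins were found in the stromal libraries, at very unequal levels. The first library held 633 CPM of Krt14, 540 CPM of Krt15, 356 CPM of Krt5 and 84.7 CPM of Krt17. The second held 51.2, 17.1, 25.4 and 16.0 CPM. The difference went with the number of squamous-like cells, gated by Trp63, Dsc3, Dsg3, Col17a1 and 11 further genes with no keratin among them. These numbered 711 in the first and 33 in the second library. They held 80.8% to 82.1% of the UMIs of these 4 keratins in the first library and 85.3% to 92.6% in the second. Per squamous-like cell the median was 262 and 369 squamous keratin UMIs and 26 and 39 simple keratin UMIs, although single keratins such as Krt17 differed more between the libraries. Levels of stroma and epithelium were not tested against each other. The selection of EpCAM-negative cells and the Cell Ranger version differ between them and cannot be told apart from the origin of the cells.

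**Figure D4:**
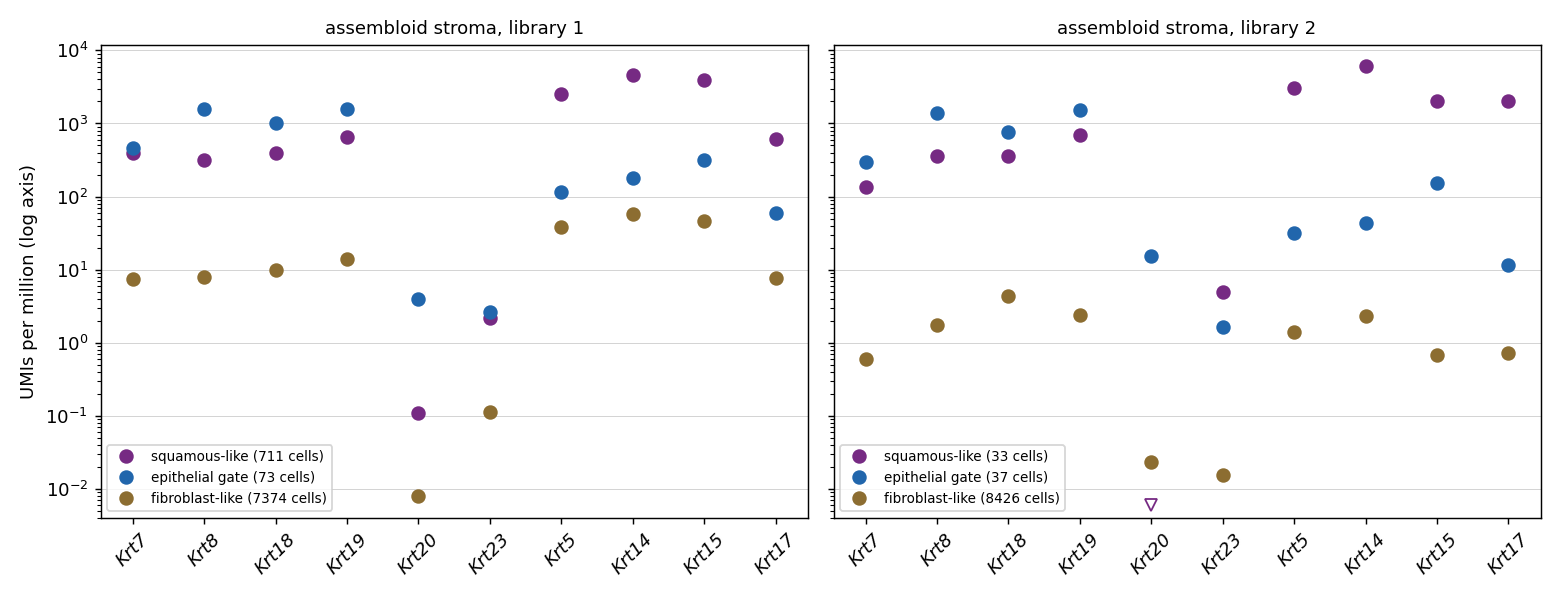
Level of the 10 keratins in CPM (log axis) in both assembloid stroma libraries, for squamous-like cells, cells of the epithelial gate and fibroblast-like cells. The open triangle marks 0 UMIs. Squamous-like cells held Krt14 at 4620 and 6191 CPM together with Krt8, Krt18 and Krt19 between 314 and 690 CPM, and Krt20 was at or near 0 in them.

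Squamous-like cells held keratins of both kinds, with Krt20 at or near 0. Krt14 measured 4620 and 6191 CPM, Krt15 3934 and 2008 CPM, Krt5 2566 and 3031 CPM, and Krt17 608 and 2043 CPM. Fibroblast-like cells of the same libraries held 56.9 and 2.31 CPM of Krt14. Among the simple keratins Krt19 measured 661 and 690 CPM, Krt18 398 and 355 CPM, Krt8 314 and 355 CPM, and Krt7 398 and 135 CPM. Krt20 had 2 UMIs in 711 cells and 0 in 33, and Krt23 had 40 and 5 UMIs. Both failed the filter on low counts in the stromal fit. Without that filter Krt23 was called higher than in fibroblast-like cells (5.45) and Krt20 was not called (3.26). All 8 keratins tested were higher than in fibroblast-like cells, from 5.99 ± 0.34 log2 units for Krt18 to 9.34 ± 1.05 for Krt14, while 23.8% of 11811 genes were called higher. The gate holds no keratin but other genes of squamous epithelium, so this count is not independent of the gating. The libraries differed widely in the ratio of CPM between squamous-like and fibroblast-like cells. It was 39.6 and 82.5 for Krt18, 47.0 and 287 for Krt19 and 66.8 and 2181 for Krt5.

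Simple and squamous keratins were found in the same barcodes. Krt5 and Krt14 were both seen in 706 of 711 squamous-like cells (99.3%) and in 33 of 33. At least 10 UMIs of Krt14 with at least 3 UMIs of Krt8 were counted in 440 of 711 (61.9%) and 20 of 33 (60.6%), against 0.434% of 7374 and 0 of 8426 fibroblast-like cells, where 0 cells with such counts allow a share of up to 0.0356% by counting error alone. Median depths were 22915 and 28809 UMIs for squamous-like and 14892 and 13202 for fibroblast-like cells. Barcodes passing both the squamous-like and the fibroblast-like gate were left out of both classes. Those passing the squamous-like and the epithelial gate counted as squamous-like. The shares in both classes are thus not independent of the gating. No doublet caller was run, and the part of doublets was not tested.

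Stromal cells of the epithelial gate (73 and 37 cells with Epcam, Cdh1, Cldn3 and others) differed from squamous-like cells in both sets. They held Krt8 at 1581 and 1385 CPM and Krt18 at 1024 and 755 CPM. Epithelial-gate cells also held 704 and 186 UMIs of Krt15 and 411 and 53 of Krt14, beside 9 and 19 of Krt20. By the gating rule none of them passed the squamous-like gate. Squamous-like cells were lower in Krt8 by 1.93 ± 0.45 (edgeR adjusted p = 0.00759) and in Krt18 by 1.01 ± 0.28 log2 units (edgeR adjusted p = 0.0219), and were higher in all 4 squamous keratins by 4.03 to 6.83. Over all genes 18.9% were called, and these keratin differences are not independent of the gating of both classes. Krt7 and Krt19 were not called (-0.58 ± 0.47 and -0.99 ± 0.44). Type I exceeded type II keratins 2.40-fold in squamous-like cells of both libraries and 1.44-fold and 1.34-fold in the epithelial gate, over all keratin UMIs.

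**Figure D5:**
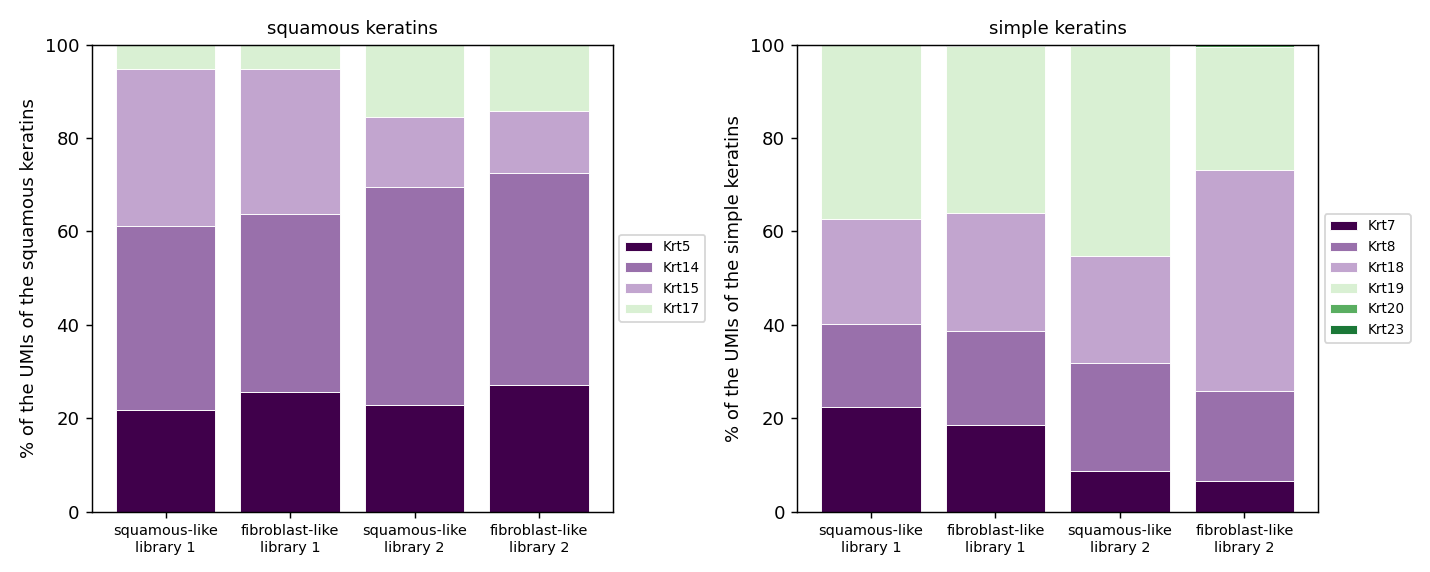
Make-up of the UMIs of the 4 squamous keratins (left) and 6 simple keratins (right) in squamous-like and fibroblast-like cells of each stromal library, in percent. Krt14 made up 39.4% and 38.1% of squamous keratin UMIs in the first library and 46.6% and 45.2% in the second, and Krt18 made up 23.1% and 47.2% of simple keratin UMIs in the second.

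The squamous keratin UMIs of fibroblast-like cells came close to the ratio of the squamous-like cells in their own library. In the first library Krt5, Krt14, Krt15 and Krt17 made up 21.9%, 39.4%, 33.5% and 5.19% of the 4 in squamous-like and 25.7%, 38.1%, 31.1% and 5.14% in fibroblast-like cells. In the second the shares were 22.8%, 46.6%, 15.1% and 15.4% against 27.2%, 45.2%, 13.2% and 14.3%. For Krt15 and Krt17 the libraries differed from each other more than their cell types did, whereas Krt5 made up a larger share in fibroblast-like than in squamous-like cells of both libraries. The part of free RNA or doublets in the fibroblast-like levels was not tested. Among simple keratins of the second library Krt18 made up 47.2% in fibroblast-like against 23.1% in squamous-like cells, on 555 UMIs in 8426 cells, while in the first library it made up 25.4% and 22.4%. Krt14 and Krt17 share 23 of the 441 sequences of 60 bases in their last 500 transcript bases, so a read within these could not tell the genes apart.

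Of the 43 other keratins 39 had a UMI and 8 averaged at least 1 CPM over the 8 libraries. From tissue to assembloids 8 of 18 tested rose and none fell, where 50.0% of all genes were called. The most abundant were Krt6a, Krt4, Krt10, Krt13 and Krt16. Krt6a, a keratin of activated squamous epithelium, stood at 1081 and 1431 CPM in squamous-like cells. Krt16 stood at 226 and 1079 CPM and Krt13 at 398 and 152 CPM there. Krt10, a keratin of cornifying layers, was not called between squamous-like and fibroblast-like cells (0.17 ± 0.23, edgeR adjusted p = 0.547). Krt4, a keratin of internal squamous linings, stood at 52.1 and 75.7 CPM in organoids, against 1.67 and 1.95 CPM in assembloids and 1.45 and 0.705 CPM in tissue. The edgeR difference of organoids from assembloids was 4.98 ± 0.30 log2 units (adjusted p = 2.89e-05). No organoid library overlapped the others.

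Keratins are anchored by desmosomes, hemidesmosomes and cytolinkers, and 20 genes of these were followed. From tissue to assembloids 7 rose and 1 fell, with a median of 0.31 against 0.03 for all genes (log2), and 8 of 20 called is below the 50.0% of all genes. The cytolinker Eppk1 fell from 64.7 and 61.7 CPM to 13.7 and 21.99 CPM (-1.46 ± 0.21). From assembloids to organoids 3 rose and 13 fell, with a median of -0.80 against -0.01, beside 53.4% of all genes called. Lama3, a laminin chain of the basement membrane, fell from 13.6 and 15.5 CPM to 0.160 and 0.419 CPM (-5.91 ± 0.36). In goblet-like cells 12 rose and 1 fell from tissue to assembloids (median 0.86 against -0.07), beside 47.5% of all genes called. Of all genes 2966 were called higher and 3028 lower there, against 1627 and 5691 without the TMM factor (median -0.57). The list was not recounted without it, and the part of free RNA in these rises was not tested. In squamous-like against fibroblast-like cells 16 of 20 were higher, beside 23.8% of all genes, led by the desmosomal genes Perp (8.13 ± 0.90) and Dsp (7.46 ± 0.72). None of the 20 is in the squamous-like gate. The gate does hold genes of the same structures, such as Dsc3, Dsg3 and Col17a1, so this count is not independent of the gating.

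Of 16 listed genes of stratified differentiation 9 were tested between tissue and assembloids, and 3 rose and 1 fell, a share near the 50.0% of all genes called. Sprr1a, a cornified envelope precursor, rose from 1.13 and 3.77 CPM to 258 and 328 CPM (7.29 ± 0.60, edgeR adjusted p = 5.63e-05). Tgm3, a transglutaminase, fell from 287 and 254 CPM to 2.05 and 4.02 CPM (-6.13 ± 0.48, edgeR adjusted p = 4.36e-05). Squamous-like cells were gated on other genes of squamous epithelium, so the next count is not independent of the gating. In squamous-like against fibroblast-like cells 9 of the 10 tested were higher, beside 23.8% of all genes. Of 12 other intermediate filament genes 9 were tested there, and 2 were higher and 3 lower, near the 52.7% of all genes called. Vim fell from fibroblast-like to squamous-like cells by 4.06 ± 0.40 log2 units (edgeR adjusted p = 1.62e-06). From tissue to assembloids 3 of 10 tested rose and none fell, under the 50.0% of all genes called. In assembloid epithelium Vim stood at 28.4 and 13.6 CPM, beside 2.70 and 2.19 CPM in tissue, and summed fibroblast markers stood at 251 and 71.4 CPM there beside 1.92 and 2.22 CPM. The part of free stromal RNA in this was not tested.

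Over 31 sums of a library and class of the epithelial libraries, the genes closest to Krt20, Krt7, Krt19 and Krt23 were named as a description. Levels were log2(CPM + 1), and the sums share libraries, depth and background. Krt20 was closest to Lhfpl2 (r = 0.92), Mxd1 (r = 0.92) and Slc35f5 (r = 0.91). Krt7 was closest to Asns (r = 0.91), Tpm4 (r = 0.91) and Anxa5 (r = 0.88). Krt19 was closest to Ppp1r14d (r = 0.93), Serpinb6a (r = 0.91) and Sqor (r = 0.91). Krt23 had weaker partners, led by Strip2 (r = 0.81).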

How the data were processed

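The deposited values are whole UMI counts for every gene and cell barcode, not normalized. The authors made them with Cell Ranger, whose version the file headers give as 6.0.1 for stroma and 7.1.0 for epithelium, from 3′ libraries aligned to mm10 per the labels. The 3′ tags do not scale with transcript length. Cells were kept at 500 genes or more and 10% mitochondrial counts or less. Classes were gated by the share of UMIs from marker lists in cells with at least 2000 UMIs, without keratins. In epithelial libraries cells passing more than 1 of the enteroendocrine-, tuft-, goblet- and colonocyte-like gates were left out. A cell of 1 such gate kept that class if it also passed the cycling or stem-like gate. The cycling gate came before the stem-like gate, and non-epithelial gates before all. In stromal libraries the squamous-like gate came before the epithelial gate. Otherwise cells passing more than 1 gate were left out, the fibroblast-like one counting only against squamous-like and epithelial cells. No doublet caller was used. Counts were summed per library, or per library and class of at least 20 cells, and tested with edgeR 4.0.16 (quasi-likelihood, TMM, Benjamini-Hochberg over all genes, called at an adjusted p under 0.05) in R 4.3.3. Fits between classes had the library as a block. With 2 libraries per group, p-values of fits between groups rest on the spread between libraries of a group, pooled over the fitted groups. Those of fits between classes rest on the spread left after the library block. Both borrow spread across genes. Intervals and floors cover counting error only. Named were the 10 members and, of each list, up to 4 called genes with the largest change, and of the other keratins the 5 most abundant. A gene under this rule is not reported here. The members, lists and gates were chosen with earlier results of these data known. Genes were placed by identifier on GRCm38 with GENCODE M21 (99.6% matched), and upstream sequence is from RefSeq. Counts simulated for assembloids against tissue over 19229 genes held 100 genes changed 2-fold and 100 changed 4-fold, at a fixed dispersion of 0.05. There 90% of 4-fold and 23% of 2-fold changes were recovered. In the data 50.0% of genes were called, so these shares do not give the recovery in the data. Alternatives were DESeq2 1.42.0, no TMM factor, no filter, other cell filters, a stricter gate and each library left out. The cells left by these filters do not match the numbers the study gives. The first assembloid epithelium library alone held 27136 cells, more than the study states for both assembloid epithelium libraries. Tissue, at 4683 and 4302 cells, held fewer than the study states.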

Additional observations from a re-analysis of the deposited data

Results flagged for a closer look

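The contrast between colonocyte-like and other cells differed between assembloids and tissue, by a test of the difference itself, for 3 of 8 keratins tested against cycling cells and 5 of 8 against goblet-like cells, where 14.5% and 15.1% of all genes were called. Values are assembloid minus tissue in log2 units from edgeR. Against cycling cells Krt7 differed by 2.17 ± 0.27, Krt20 by -2.24 ± 0.37 and Krt19 by -1.03 ± 0.23. Against goblet-like cells Krt7 differed by 2.50 ± 0.25, Krt19 by -2.01 ± 0.23, Krt8 by -1.47 ± 0.23, Krt20 by -1.04 ± 0.24 and Krt23 by -2.23 ± 0.58. The adjusted p-values ran from 4.79e-06 to 0.0152. Both Krt20 values rest on assembloid cycling and goblet-like levels of 18.1 to 37.1 CPM, beside 30.04 and 12.9 CPM in fibroblast-like cells, and the part of free RNA was not tested. Krt20 against goblet-like cells was not called under the stricter gate (-0.75) or without the first tissue library (-0.86). Krt19 against cycling cells was not called without either tissue library (-1.04), nor was Krt23 against goblet-like cells (-2.14 and -2.27).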

How the results depend on the processing

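Of 159 recomputed counts of called keratins 141 stayed within 1.5 times the reported count. With DESeq2 5 keratins were called from tissue to organoids (3 reported) and 5 for the group difference against cycling cells (3 reported). Without the TMM factor 5 were called from tissue to organoids, and 3 between organoid and assembloid goblet-like cells (5 reported). With each library left out in turn, the counts were 1 to 2 from tissue to assembloids, 2 to 4 from tissue to organoids and 2 to 3 between the cultures. In colonocyte-like cells they were 2 to 6. In goblet-like cells they were 4 to 6 from tissue to assembloids, 0 to 3 from tissue to organoids and 3 to 5 between the cultures, and in cycling cells 2 to 4, 2 to 3 and 1 to 3. Between colonocyte-like and cycling cells they were 5 in assembloids and 3 to 5 in tissue. The group differences counted 2 to 5 against cycling and 3 to 5 against goblet-like cells. No single keratin changed direction across a call in 1186 recomputed fold changes, 42 lost and 35 gained a call. The interaction alternatives and the class fits without the TMM factor were chosen after seeing the data. Replicate numbers are not said to mark a shared mouse. Deviations of libraries with the same number correlated at 0.01, 0.05 and -0.02, which cannot tell whether a mouse was shared. With a replicate block 2, 3 and 3 keratins were called between whole libraries, as reported, 4 in colonocyte-like cells, 5, 2 and 5 in goblet-like cells, and 3, 2 and 3 in cycling cells. Organoid colonocyte-like cells were too few for a fit, and leaving out a stromal library left no residual degrees of freedom. No stricter-gate fit was run for organoid goblet-like cells. Krt5 and Krt17 had too few UMIs in epithelium to pass the filter on low counts, and 23 goblet-like cells per organoid library limit that class.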
